A study of Mus musculus with 21 samples.

Results

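The genes of the glutathione, peroxiredoxin and thioredoxin systems were followed in RNA sequencing of 21 whole testes from C57BL6 male mice. They were taken by gene symbol. The families were glutathione S-transferases (Gsta, Gstk, Gstm, Gsto, Gstp, Gstt and Gstz), the microsomal ones (Mgst), glutathione peroxidases (Gpx) and peroxiredoxins (Prdx). Added to these were every symbol that begins with Txn, the superoxide dismutases Sod1 to Sod3, and Gclc, Gclm, Gss, Gsr, Cat, Srxn1, Nqo1 and Nfe2l2. Of 77 symbols that matched among 55573 table entries, the 70 with a mean of at least 0.5 TPM (a transcript abundance scaled for length and to a fixed library total) over all 21 libraries were kept, and 69 of them passed the filter at a mean of 1 TPM that the test required. Gsta1 was the member nearest the limit of 0.5 TPM on the inside, at a mean of 0.898 TPM, and was not tested. Gstp3 was the nearest outside it, at 0.433 TPM. The other symbols left out were Gpx2, Gpx5 and the pseudogene entries Gpx2-ps1, Prdx2-ps2, Prdx6-ps2 and Txn-ps1. Among the 70 members, 4 are pseudogene entries (Gpx4-ps1, Gpx4-ps2, Gstm2-ps1 and Prdx2-ps1).

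Testes came from wild-type mice without heat (n = 6), Mageb4 knockout mice without heat (n = 6), wild-type mice 72 h after heat shock (n = 4) and Mageb4 knockout mice 72 h after heat shock (n = 5). Mageb4 belongs to the melanoma antigen (MAGE) family, is encoded on the X chromosome and is expressed in testis. The study asked how its loss alters the testis transcriptome with and without heat stress. All groups share the C57BL6 strain. Not given in the sources used here were the knockout allele, the age of the mice and how hot and how long the heating was.

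Glutathione is a small thiol made by glutamate-cysteine ligase and glutathione synthetase. Glutathione S-transferases couple it to reactive molecules, glutathione peroxidases use it to reduce peroxides, and glutathione reductase returns it to its reduced form. Peroxiredoxins reduce peroxides through reactive cysteines and are themselves recharged by thioredoxin, which thioredoxin reductases keep reduced with NADPH. Testis carries versions of several of these enzymes that are found mainly in spermatids and sperm. Gpx4 becomes a structural part of the sperm midpiece, Txndc2 and Txndc8 are thioredoxins of the sperm tail and acrosome, and Txnrd3 is a reductase enriched in testis. Somatic cells of the testis, Sertoli and Leydig cells among them, hold high levels of glutathione S-transferases. Nfe2l2, also called Nrf2, is the transcription factor best known for switching many of these genes on under oxidative stress.

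Mageb4 itself lay at 1.53 to 1.99 TPM in unheated wild type and 7.82 to 8.26 TPM in heated wild type, and at 0.01 to 0.11 and 0.09 to 0.15 TPM in the 2 knockout groups, so every library matched its genotype label. Cell type markers moved strongly with heat. All 20 Sertoli cell markers rose in wild type, with summed levels of 2230 to 2542 TPM without heat and 19675 to 24800 TPM after it, against 2800 to 3705 and 8084 to 12059 TPM in the knockout, and none of them stood at 0. All 12 Leydig cell, 11 macrophage, 8 endothelial, 7 peritubular myoid and 5 red blood cell markers also rose in both genotypes. Red blood cell sums lay at 91.7 to 199 TPM in unheated and 515 to 1385 TPM in heated wild type, and at 103 to 314 and 252 to 774 TPM in the knockout. Of 9 tested spermatogonial markers, 6 rose and 1 fell in wild type, and 7 rose and 1 fell in the knockout. Of 13 spermatocyte markers, 10 fell in both genotypes, while 3 rose in wild type and 2 in the knockout. Of 12 round spermatid markers, 11 fell in both genotypes, with sums of 2600 to 2730 TPM going to 992 to 1197 TPM in wild type and 2461 to 2716 going to 1492 to 1755 TPM in the knockout. The sum of 11 elongating spermatid markers lay at 45858 to 57036 TPM in unheated and 35173 to 47561 TPM in heated wild type, and at 48018 to 55190 and 76273 to 95096 TPM in the knockout, and of these markers 6 rose and 3 fell in wild type while all 11 rose in the knockout. In bulk tissue, fewer cells of a type and less RNA per cell cannot be told apart, and since TPM values share a fixed total, a rise can also be a larger share of a smaller whole. The part of these marker shifts in the results below was not tested.

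In unheated wild type, the most abundant members included genes known from germ cells. Gstm5, a mu-class transferase known from testis, stood first at 3398 ± 123 TPM (mean ± SD, n = 6), followed by Gpx4 at 1751 ± 69 TPM. Then came Txndc2 at 624.9 ± 38.1, Gstm1 at 525 ± 74.4 and Gstt4 at 514 ± 11.8 TPM, whose standard deviations of 11.8 to 74.4 TPM leave the order of Gstm1 and Gstt4 unresolved. TPM is scaled by transcript length, so levels of different genes can be set side by side. The 70 members together made up 1.13% of the transcripts in wild type and 1.15% in the knockout without heat, and 1.82% and 1.61% after it.

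Heat shifted most of these genes in wild-type testes. Of 69 tested members, 47 rose and 19 fell at an adjusted p under 0.05 in limma, where 47% of all 18977 tested genes rose, 44.6% fell and 91.6% did either. Among the members 68.1% rose and 27.5% fell. The median log2 difference, meaning the difference of group means of log2(TPM + 1), was 1.40 over the members and 0.06 over all genes tested. Among the members that rose, 39 of 47 at least doubled in mean TPM, and the folds ran from 1.29 (Gclm) to 14.6 (Gpx3) with a median of 4.80. The fold of Gpx3 was 7.73 without heated wild-type library 3, and the next highest was 12 (Gstm7, all libraries). Among those that fell, folds ran from 1.17 (Prdx5) to 26.5 (Prdx6b). The heated and unheated libraries did not overlap for 47 members on the higher and 18 on the lower side, against 44.5% and 42% of all genes.

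In the knockout, heat also raised most members, by smaller folds. There 50 members rose and 11 fell, where 41.3% of all genes rose, 41.5% fell and 82.8% did either. The median log2 difference was 0.61 over the members and 0.01 over all genes. Folds among the risen members ran from 1.08 (Txndc12) to 4.47 (Gpx3), and 33 of the 50 at least doubled. The libraries did not overlap for 45 members on the higher and 10 on the lower side, where 33.9% and 35.8% of all genes did not. For the 44 members that rose in both genotypes, the knockout's log2 difference was 0.17 to 0.72 times that of wild type, with a median of 0.54. Over the 7065 tested genes that rose in both genotypes the median of that ratio was 0.50. Only 1 member, Gclm, was called higher in wild type and lower in the knockout.

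The difference between the heat effects (knockout minus wild type) was tested directly in the same limma model. It was called positive for 16 members and negative for 50, where 33.2% of all genes were called positive, 47.6% negative and 80.7% either. Its median was -0.73 over the members and -0.23 over all genes. Heated knockout testes were higher than heated wild-type testes for 15 members and lower for 50, against 34.4% and 49% of all genes (83.5% in either direction). The median log2 difference was -0.49 over the members and -0.20 over all genes. The groups did not overlap for 14 of the higher and 44 of the lower members, where 29.9% and 42.5% of all genes did not. Both comparisons use the heated libraries that also enter the heat effects, so none of these counts is independent of the others.

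**Figure D1:**
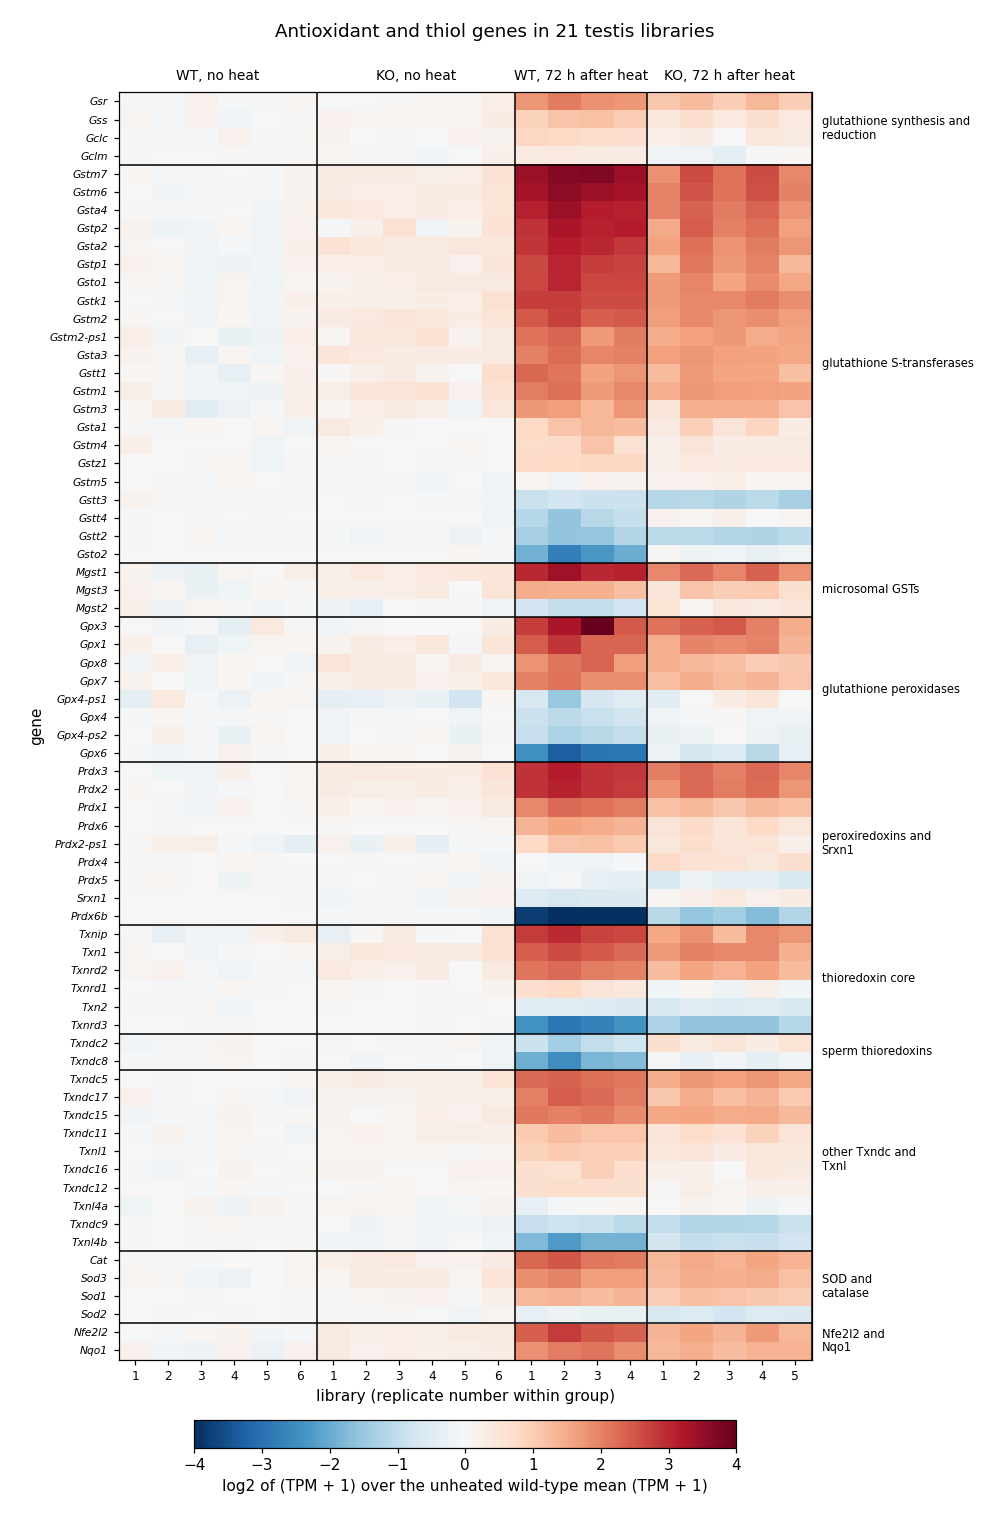
Each row is 1 of the 70 members, grouped by role, and each column 1 of the 21 libraries. Colour gives log2 of (TPM + 1) over the mean of unheated wild type (red higher, blue lower, scale -4 to 4). The unheated libraries are nearly white, the 4 heated wild-type libraries carry the deepest colours, and the 5 heated knockout libraries show paler reds and, for Gsto2, Txndc8, Gpx4 and Txndc2, almost none of the blue.

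The 4 genes of glutathione synthesis and reduction all rose in heated wild-type testes. Gsr, glutathione reductase, lay at 8.18, 8.5 and 9.87 TPM (lowest, median and highest, as for all groups of 6 libraries here) in unheated wild type and at 32, 40, 33.3 and 31.5 TPM in the 4 heated libraries. The heated libraries all stood above the unheated ones, a 3.91-fold change in mean TPM (log2 difference 1.85 ± 0.08, adjusted p = 3.45e-15, ± SE here and below). Gsr in the heated knockout lay at 19.6, 22.2, 18.2, 23.6 and 18.4 TPM, above its unheated range of 8.63 to 10.7 TPM and below every heated wild-type library. Gss, glutathione synthetase, rose 2.33-fold in wild type and 1.33-fold in the knockout, and Gclc, the catalytic subunit of glutamate-cysteine ligase, rose by 0.75 and 0.20 on the log2 scale.

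Gclm, the modifier subunit of the ligase, was the only one of 69 tested members called higher in wild type and lower in the knockout, but the knockout call was not stable. Its unheated wild-type libraries lay at 45.6, 49 and 50.4 TPM and the heated ones at 62, 63.5, 63 and 61.8 TPM, with no overlap. Gclm in the knockout lay at 45.4, 49.5 and 56.7 TPM without heat and 44, 43.8, 37.7, 46.8 and 51.6 TPM after it, and these ranges overlapped. The log2 difference was 0.36 ± 0.07, adjusted p = 5.90e-05 in wild type and -0.16 ± 0.07, adjusted p = 0.0337 in the knockout, where quantile normalization turned it to 0.08. The knockout call was also lost with a replicate block (-0.13, adjusted p = 0.0788), with only the groups compared in the fit (adjusted p = 0.0899), after rescaling without mitochondrial transcripts (adjusted p = 0.0651) and without 6 of the 21 libraries in turn, and the value shrank to -0.097 without heated knockout library 3. The difference between the heat effects was -0.51 ± 0.10, adjusted p = 5.59e-05.

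Glutathione S-transferases held the largest group of members, and 16 of 21 tested rose with heat in wild type while 4 fell. The steepest rises were in the mu-class genes Gstm7 and Gstm6 and the alpha-class gene Gsta4, an enzyme known for conjugating the lipid peroxidation product 4-hydroxynonenal. Gstm7 lay at 55.7, 57.9 and 65 TPM in unheated wild type and at 658, 768, 774 and 640.5 TPM in the heated libraries. Gstm7 in the knockout lay at 68.6, 74.4 and 88.1 TPM without heat and 213, 368, 268, 369 and 226 TPM after it. All heated libraries stood above all unheated ones in each genotype, and all 5 heated knockout libraries stood below the 4 heated wild-type libraries. The folds were 12 in wild type and 3.83 in the knockout (log2 differences 3.56 ± 0.13 and 1.89 ± 0.12), and the difference between them was -1.67 ± 0.17, adjusted p = 3.44e-08, the most negative of any member.

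Gsta4 went from 51.8, 55.9 and 62.8 TPM to 487, 628, 499.7 and 498 TPM in wild type, a 9.38-fold rise. Gsta4 in the heated knockout lay at 224, 296, 242, 287 and 200.2 TPM, 3.41-fold above its unheated mean of 73.3 TPM. Gstm6 rose 10.9-fold in wild type and 3.83-fold in the knockout. The other transferases that rose in wild type included Gstp2 (9.28-fold), Gsto1 (8.18-fold), Gsta2 (8.05-fold), Gstk1, a mitochondrial and peroxisomal transferase (7.06-fold), and Gstz1, which takes part in tyrosine breakdown (1.76-fold). The Sertoli marker sums given above moved in the same direction in each of these comparisons. So did the Leydig, macrophage, endothelial, peritubular myoid and red blood cell markers, and the part of any of them was not tested. Some of these genes cannot be fully separated by short reads: the transcripts of Gstp1 and Gstp2 are 94.2% identical over 798 aligned bases, those of Gstm1 and the pseudogene Gstm2-ps1 97.9% over 657, and those of Gsta1 and Gsta2 97.2% over 870.

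Gstm5, the most abundant member, behaved unlike the mu-class genes around it. It lay at 3257, 3394 and 3562 TPM in unheated wild type and at 3572, 3105, 3811 and 3756 TPM after heat, and these ranges overlapped. Its log2 difference of 0.06 ± 0.05 did not pass the test (adjusted p = 0.232), turned to -0.17 under median-of-ratios scaling and -0.70 under quantile normalization, and became a call of 0.13 without heated wild-type library 2 (adjusted p = 0.00549). Gstm5 in the knockout lay at 3078, 3217 and 3393 TPM without and 3811, 3790.4, 4006, 3603 and 3634 TPM with heat, a rise of 0.23 (adjusted p = 1.27e-04) that quantile normalization turned to -0.31. Its direction after heat thus depended on the scaling in both genotypes. With most of its neighbours higher after heat, the share of Gstm5 in all transferase transcripts was 60.6% ± 1.49 in unheated and 31.9% ± 3.80 in heated wild type, and 55.2% ± 1.86 and 41.6% ± 2.18 in the knockout. This share and the other isoform shares below were chosen after their values had been seen.

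Gsto2 and 3 theta-class genes made up the transferases that fell in wild type. Gsto2, an omega-class enzyme with dehydroascorbate reductase activity, lay at 290.3, 294 and 299 TPM in unheated wild type and at 76.2, 43.1, 58 and 74.3 TPM in the heated libraries, a 4.68-fold fall (-2.24 ± 0.10, adjusted p = 7.50e-15). Gsto2 in the heated knockout lay at 302, 256, 262, 237 and 266 TPM against 280.1, 292 and 308 TPM without heat. Those ranges overlapped and the change of -0.15 ± 0.10 did not pass (adjusted p = 0.155), although median-of-ratios scaling made it a call of -0.24 and omission of heated wild-type library 2, which enters only the shared spread, brought the adjusted p to 0.0266. The difference between the heat effects was 2.09 ± 0.14, adjusted p = 2.52e-10. Its neighbour Gsto1 rose in both genotypes, 8.18-fold and 3.07-fold, so that the share of Gsto2 in the pair was 98.6% ± 0.163 without heat and 63.4% ± 9.23 after it in wild type, and 98.2% ± 0.151 and 94% ± 1.08 in the knockout.

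The theta-class genes split further. Gstt4 lay at 499, 519 and 528 TPM in unheated wild type and fell to 235, 172, 238 and 267 TPM (-1.19 ± 0.08, adjusted p = 1.83e-12). Gstt4 in the heated knockout lay at 575, 557, 589.9, 524 and 555 TPM, above its unheated libraries at 471, 506 and 516 TPM without overlap. That rise of 0.16 ± 0.07 only just passed (adjusted p = 0.0464), was lost without 16 of the 21 libraries in turn and shrank to 0.07 under median-of-ratios scaling. The 16 include every unheated wild-type library, which enters only the shared spread. Omitting those left the value at 0.16, with adjusted p from 0.0516 to 0.0530. Gstt2 fell in both genotypes, by 1.41 and 1.01 on the log2 scale, and Gstt3 fell by 0.84 and 1.14. Gstt3 thus had the larger fall in the knockout (difference -0.30 ± 0.08, adjusted p = 0.00182), a call that both median-of-ratios scaling and quantile normalization removed. Of the 10 members called lower in both genotypes, 5 fell less in the knockout than in wild type. Of the 6773 tested genes called lower in both genotypes, 5500 fell less in the knockout. The median ratio of knockout to wild-type log2 difference was 0.87 over those members and 0.65 over those genes. Gstt1 rose 4.51-fold in wild type and 2.53-fold in the knockout.

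The microsomal transferases are membrane enzymes, and Mgst1 was the one with the large response. It lay at 49.2, 63.4 and 72.5 TPM in wild type without heat and at 499, 647, 507 and 519 TPM with it, and the heated knockout held 235, 297, 238, 320.0 and 214 TPM, rises of 8.88-fold and 3.3-fold over the respective unheated mean. Mgst3 rose 2.88-fold and 1.6-fold. Mgst2 went opposite ways in the genotypes: its heated wild-type libraries at 5.64, 4.79, 4.87 and 5.73 TPM lay below the unheated ones at 8.88, 10.1 and 12.1 TPM. Mgst2 in the heated knockout stood at 15.7, 11, 14.3, 13.4 and 15 TPM, against 8.01, 9.46 and 10.4 TPM without heat. The log2 differences were -0.85 ± 0.10, adjusted p = 2.32e-08 in wild type and 0.53 ± 0.09, adjusted p = 1.40e-05 in the knockout, and the difference between them was 1.38 ± 0.13, adjusted p = 1.19e-08.

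Among the glutathione peroxidases, 4 rose and 4 fell with heat in wild type. Gpx4, the phospholipid hydroperoxidase that protects membranes and builds the sperm midpiece, lay at 1668, 1740.0 and 1835 TPM in unheated wild type and at 970.5, 854, 951 and 1056 TPM in the heated libraries. It fell 1.83-fold without overlap (-0.87 ± 0.05, adjusted p = 7.62e-13). Gpx4 in the knockout lay at 1598, 1693 and 1752 TPM without and 1587, 1691, 1819, 1589 and 1593 TPM with heat. Those ranges overlapped and no change was called (-0.02 ± 0.05, adjusted p = 0.73), whereas quantile normalization gave a called fall of 0.28. The difference between the heat effects was 0.85 ± 0.07, adjusted p = 3.44e-09. Gpx4-ps2, whose transcript is 99.7% identical to that of Gpx4 over 733 bases, showed -1.05 and -0.15 on the log2 scale (the second not called, but called at -0.20 without heated knockout library 3, adjusted p = 0.0409, and at -0.23 under median-of-ratios scaling), and how reads were divided between them is uncertain.

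Gpx6 showed the steepest fall of the family. It lay at 29.6, 32.3 and 36.9 TPM in unheated wild type and at 5.22, 2.47, 3.46 and 3.59 TPM after heat, an 8.91-fold fall (-2.88 ± 0.14, adjusted p = 1.56e-14). Gpx6 in the knockout lay at 32.2, 35.2 and 37.8 TPM without and 27.7, 20.1, 22.4, 14.7 and 25.7 TPM with heat, a 1.58-fold fall (-0.66 ± 0.13, adjusted p = 9.04e-05). The heated knockout libraries all stood between the unheated range and the heated wild-type range, and the heat effects differed by 2.22 ± 0.19, adjusted p = 4.06e-09.

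Gpx1, the ubiquitous cytosolic peroxidase, went from 28.4, 36.9 and 41.6 TPM to 198, 268, 184 and 183 TPM in wild type, a 5.82-fold rise, and rose 2.84-fold in the knockout. Gpx7 and Gpx8, peroxidases of the endoplasmic reticulum, rose by 1.98 and 2.0 on the log2 scale in wild type and by 1.01 and 0.91 in the knockout. Gpx3, the secreted plasma peroxidase, lay at 10.5, 13.5 and 18.4 TPM in unheated wild type and at 98, 141, 484 and 79.2 TPM in the heated libraries. The heated library 3 stood far above the other 3, and without it the mean was 106 ± 31.7 TPM (SD, n = 3) and the fold 7.73 in place of 14.6. That same library had an epididymis marker sum of 3766 TPM, where the other heated wild-type libraries had 196 to 259 TPM. This sum was 439 to 485 TPM in unheated wild type, 416 to 497 TPM in the unheated knockout and 536 to 770 TPM in the heated knockout. Gpx5, the epididymal peroxidase, stood at no more than 0.020 TPM in heated wild type. Gpx3 in the heated knockout lay at 66, 74, 79.5, 59.1 and 39.8 TPM, a 4.47-fold rise (2.05 ± 0.30, adjusted p = 2.04e-06). Its difference between genotypes after heat was -1.28 with all libraries and -0.72 without heated wild-type library 3, and the difference of its heat effects was -1.34 and -0.79.

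Peroxiredoxins and sulfiredoxin held the member with the deepest fall. Prdx6b, a paralog of the widely expressed peroxiredoxin Prdx6, lay at 249, 252 and 253 TPM in unheated wild type and at 17.2, 3.57, 5.04 and 12.2 TPM after heat. This 26.5-fold fall was -4.81 ± 0.24, adjusted p = 2.84e-14 on the log2 scale. Prdx6b in the knockout lay at 235, 241 and 245 TPM without heat and 116, 85.3, 97.2, 75.1 and 110.3 TPM after it, a 2.49-fold fall (-1.32 ± 0.23, adjusted p = 1.70e-05). All heated knockout libraries stood above all heated wild-type ones, 10.2-fold on average, and the heat effects differed by 3.48 ± 0.33, adjusted p = 1.34e-08, the largest difference of any member.

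Prdx6 moved the other way, from 158, 162 and 164 TPM to 419, 482, 449.7 and 412 TPM in wild type, and stood at 232, 273, 225, 282 and 222 TPM in the heated knockout. Prdx6b therefore supplied 60.9% ± 0.367 of the transcripts of the pair in unheated wild type and 2.16% ± 1.51 after heat, against 59.4% ± 1.02 and 28.3% ± 5.61 in the knockout. The 2-cysteine peroxiredoxins Prdx1 and Prdx2 of the cytosol and Prdx3 of the mitochondria rose 4.33, 7.69 and 7.98-fold in wild type and 2.05, 3.37 and 3.42-fold in the knockout. Prdx5 fell by 0.23 and 0.48 on the log2 scale.

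Prdx4, the peroxiredoxin of the endoplasmic reticulum, was called higher with heat in the knockout and was not called in wild type. It lay at 246, 264 and 278 TPM in unheated wild type and 257, 238, 238 and 248 TPM after heat, a difference of -0.09 ± 0.06 that was not called (adjusted p = 0.115), became -0.33 and called under median-of-ratios scaling, and turned to 0.24 under quantile normalization. Prdx4 in the knockout lay at 238, 262 and 283 TPM without and 448, 388, 394, 362 and 408 TPM with heat, with no overlap (0.61 ± 0.05, adjusted p = 7.37e-10). The difference itself was called (0.70 ± 0.08, adjusted p = 7.42e-08). Srxn1, sulfiredoxin, which repairs overoxidised peroxiredoxins, lay at 47.4, 48.3 and 49.6 TPM in unheated wild type and 33.9, 30.5, 32.1 and 32.1 TPM after heat. Srxn1 in the knockout lay at 44.6, 47.8 and 55.1 TPM without and 52.4, 56, 63.6, 55 and 59.9 TPM with heat. The heat effect was -0.57 ± 0.06, adjusted p = 1.68e-08 in wild type and 0.23 ± 0.06, adjusted p = 0.00138 in the knockout, with a difference of 0.80 ± 0.09, adjusted p = 6.07e-08.

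In the thioredoxin core, the cytosolic thioredoxin Txn1 rose and the mitochondrial Txn2 fell. Txn1 went from 15.4, 17.1 and 18.8 TPM to 94.4, 109, 99.8 and 87.4 TPM in wild type and to 58.2, 72.9, 68.7, 68.6 and 47.6 TPM in the heated knockout, rises of 5.67-fold and 2.75-fold. Txn2 fell by 0.50 and 0.54 on the log2 scale, and the difference of -0.04 ± 0.06 between those effects did not pass the test (adjusted p = 0.573). Txnip, which binds thioredoxin and inhibits it, rose 7.06-fold in wild type and 2.99-fold in the knockout.

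The 3 thioredoxin reductases parted. Txnrd3, the testis-enriched reductase that also acts on glutathione, lay at 263, 268 and 282 TPM in unheated wild type and at 49.4, 35.2, 40.3 and 50.6 TPM after heat (-2.61 ± 0.09, adjusted p = 1.07e-16). Txnrd3 in the heated knockout lay at 115, 89.5, 90.5, 90.3 and 121 TPM, 2.65-fold under its unheated mean of 268 TPM, the deepest fall of any member in that genotype. All of those libraries stood above the heated wild-type ones (difference of the heat effects 1.2 ± 0.12, adjusted p = 3.95e-08). Cytosolic Txnrd1 rose by 0.60 in wild type (adjusted p = 1.37e-07) and showed -0.08 ± 0.07 in the knockout (adjusted p = 0.301), and mitochondrial Txnrd2 rose by 2.11 and 1.16. Txnrd3 made up 92.5% ± 0.155 of the transcripts of the 3 genes in unheated wild type and 48.5% ± 6.39 after heat, against 92.0% ± 0.494 and 77.6% ± 4.17 in the knockout.

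Both sperm thioredoxins fell in heated wild-type testes. Txndc2, a thioredoxin of the fibrous sheath of the sperm tail, lay at 583, 623 and 683 TPM in unheated wild type and at 346, 245, 315 and 362 TPM after heat (-0.99 ± 0.09, adjusted p = 6.45e-10). Txndc2 in the knockout lay at 552, 594 and 680.1 TPM without heat and 969.9, 805, 872, 760.4 and 912 TPM after it, a rise (0.51 ± 0.08, adjusted p = 9.86e-06). Its heated knockout libraries stood above every library of the other 3 groups, and the heat effects differed by 1.5 ± 0.12, adjusted p = 1.77e-09. Txndc8, a thioredoxin associated with the acrosome, fell from 296, 304 and 336 TPM to 78.8, 54.4, 86 and 92.2 TPM in wild type (-2.0 ± 0.10, adjusted p = 3.18e-14). Txndc8 in the heated knockout lay at 301, 243, 284, 241 and 286 TPM, overlapping its unheated 272, 303 and 309 TPM (-0.13 ± 0.10, adjusted p = 0.199, and 0.0467 without heated wild-type library 2, which enters only the shared spread). The summed elongating spermatid markers of the heated knockout also stood above those of every other group, and the round spermatid sums stood between those of heated and unheated wild type.

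**Figure D2:**
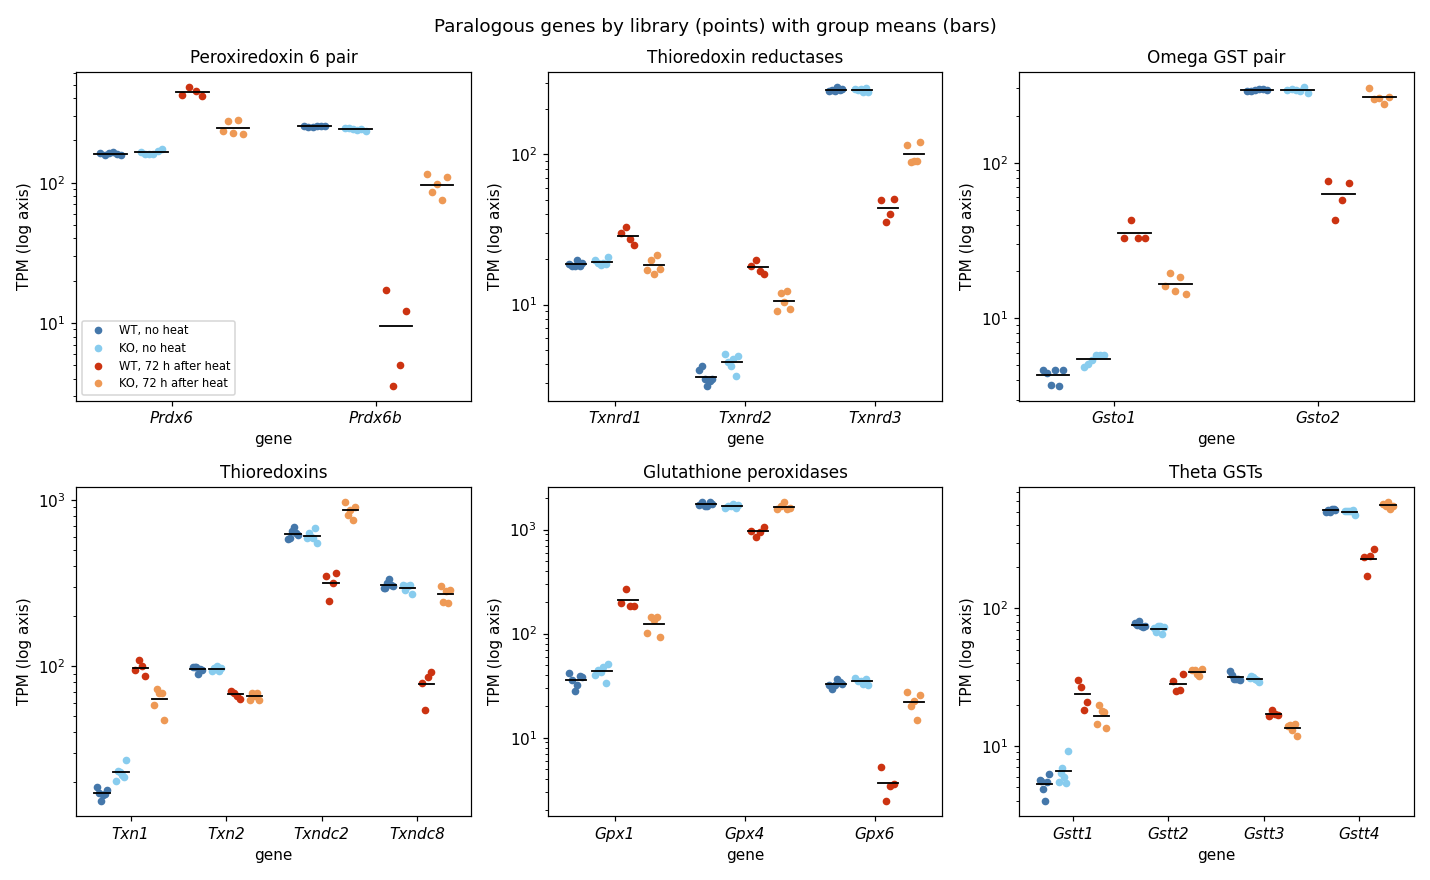
Points are TPM values of single libraries on log axes, coloured by group, and black bars are group means. The panels set paralogs side by side: Prdx6b, Txnrd3, Gsto2, Txndc8 and Gpx6 are lowest in the heated wild-type libraries (dark red) with the heated knockout (orange) above them, while Prdx6, Txn1, Gsto1 and Gpx1 are highest there.

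Other members with a thioredoxin fold were mixed. Of 10 such Txndc and Txnl genes, 7 rose and 2 fell with heat in wild type, and 6 rose and 2 fell in the knockout. Txndc5, a disulfide isomerase of the endoplasmic reticulum, rose 4.91-fold and 2.6-fold, and Txndc17 rose 4.8-fold and 2.15-fold. Txnl4b, which takes part in pre-mRNA splicing, fell by 1.96 and 0.78 on the log2 scale, and Txndc9 fell by 0.93 and 0.95. Txnl4a, a splicing factor, passed in no comparison, with differences between -0.07 and 0.06 in the comparisons of 2 groups.

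Catalase and 2 of the 3 superoxide dismutases rose. Cat, which breaks down hydrogen peroxide in peroxisomes, went from 6.7, 7.0 and 7.71 TPM to 38.6, 44, 33.9 and 33.6 TPM in wild type and to 19.2, 22, 20.2, 23.3 and 20.2 TPM in the heated knockout, 5.28-fold and 2.38-fold over the unheated means. Red blood cells are rich in Cat, Gpx1 and Prdx2, and the red blood cell marker sums given above also rose in both genotypes, a part that was not tested. Cytosolic Sod1 rose 2.5-fold and 1.94-fold, and extracellular Sod3 3.7-fold and 2.18-fold. Sod2, the mitochondrial enzyme, lay at 91.7, 94.7 and 97.3 TPM in wild type without heat and 75.2, 81.7, 77.3 and 76.3 TPM with it, and the heated knockout held 60, 64.3, 55.4, 64.2 and 62.7 TPM. Its fall of 0.28 in wild type shrank to 0.02 and was no longer called under quantile normalization, while the fall in the knockout was 0.63 (adjusted p = 1.33e-10). Sod2 and Prdx3 are both mitochondrial, and on the deposited scale they moved in opposite directions in both genotypes.

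**Figure D3:**
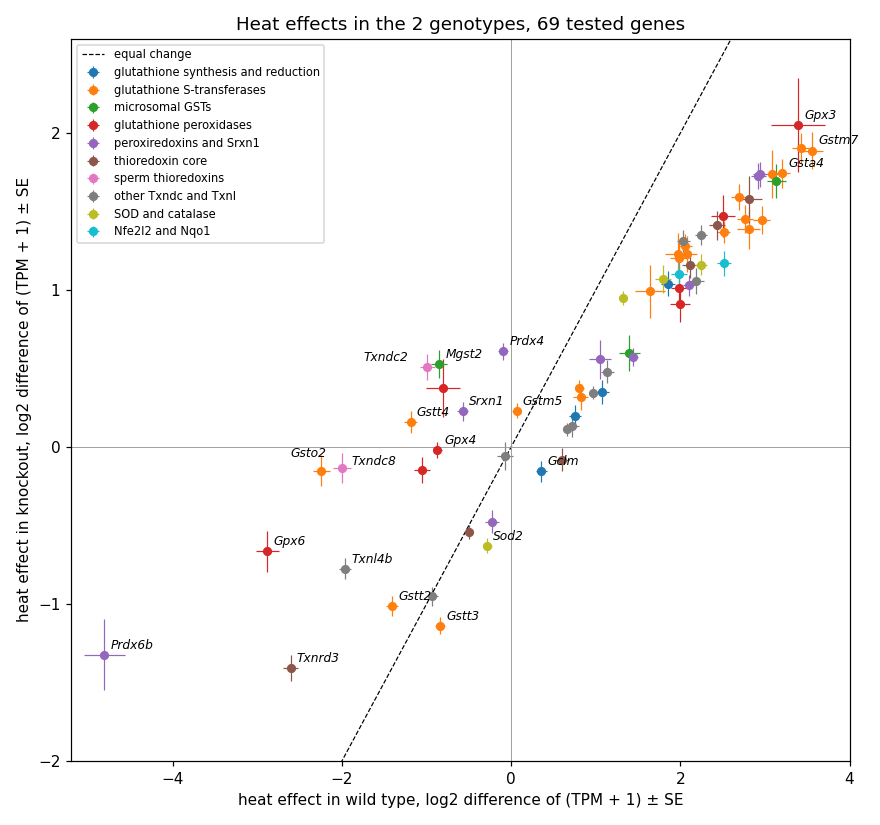
Each point is 1 of the 69 tested members, with the log2 difference of heat against no heat in wild type on the horizontal and in the knockout on the vertical axis, bars of 1 SE, and a dashed line of equal change. Risen members lie below the line at smaller knockout values, and Prdx6b, Gpx6, Txnrd3, Gsto2 and Txndc8 lie far to the left. Txndc2, Mgst2, Srxn1 and Gstt4 lie left of 0 for wild type and above 0 for the knockout.

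Nfe2l2 lay at 12.1, 12.9 and 14.4 TPM in unheated wild type and at 73.5, 96.5, 78 and 71.1 TPM after heat, a 6.1-fold rise (2.51 ± 0.08, adjusted p = 5.94e-17). Nfe2l2 in the knockout lay at 15.6, 16.4 and 17.1 TPM without and 35.5, 41.3, 35.1, 45 and 34.4 TPM with heat, a 2.34-fold rise (1.17 ± 0.08, adjusted p = 1.29e-11). In each genotype the heated libraries stood above all unheated ones, and the heat effects differed by -1.34 ± 0.11, adjusted p = 3.10e-09. Nqo1, a quinone reductase used widely as a readout of Nfe2l2 activity, rose 4.91-fold and 2.44-fold. Other textbook targets ranged widely in heated wild type. The log2 differences were 2.1 for Prdx1, 1.98 for Nqo1, 1.85 for Gsr, 0.75 for Gclc, 0.60 for Txnrd1, 0.36 for Gclm and -0.57 for Srxn1, and 2.73 for Hmox1, which is not a member. This choice of targets was made after their values had been seen. Nfe2l2 protein was not measured.

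Nfe2l2 binds antioxidant response elements, so the promoters of the members were searched for the core letters TGACNNNGC on both strands, from 250 bases before to 50 bases after each start, in RefSeq promoter sequences of GRCm38.p6. Of the 57 members with a promoter entry, 13 (22.8%) held the core, and 3781 of 27025 genes (14%) did. It was present in 10 of 39 members that rose with heat in wild type and in 2 of 15 that fell. The palindromic letters GAANNTTC, a pair of facing sites of the heat shock element, were present in 4 of 57 members (7.02%) and in 9.04% of all genes. Sod1 held both patterns at separate positions of the same promoter entry, and Mgst1 held them in different promoter entries. The windows below show the core with its flanks in 3 genes known as targets of Nfe2l2 (Prdx1, Gclm and Txnrd1), in Gsta3, which rose 4.21-fold in heated wild type, in the abundant Gstm5 and in Txndc2, which fell in wild type and rose in the knockout. Each is given 5′ to 3′ on the gene's strand in lower case with the core in capitals, where a core that begins with GC is the reverse complement.
Prdx1: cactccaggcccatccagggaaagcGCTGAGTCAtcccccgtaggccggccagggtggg
Gclm: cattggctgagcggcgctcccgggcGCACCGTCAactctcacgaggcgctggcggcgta
Txnrd1: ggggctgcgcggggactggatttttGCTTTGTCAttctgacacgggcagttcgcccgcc
Gsta3: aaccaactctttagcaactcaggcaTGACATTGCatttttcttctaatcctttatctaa
Gstm5: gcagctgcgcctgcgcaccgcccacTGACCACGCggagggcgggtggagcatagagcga
Txndc2: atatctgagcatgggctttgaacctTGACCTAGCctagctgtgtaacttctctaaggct
These windows lie at chr4:116685441-116685499 (plus strand), chr3:122245398-122245456 (plus strand), chr10:82859089-82859147 (plus strand), chr1:21240439-21240497 (plus strand), chr3:107895787-107895845 (plus strand) and chr17:65639926-65639984 (minus strand) in the order shown. All cores lie upstream of the start of the RefSeq entry they were read from, beginning 133, 134, 92, 121, 42 and 203 bases before it. By the outer gene bounds of GENCODE M21, the cores of Prdx1, Gclm, Gsta3 and Gstm5 are upstream of the gene, and those of Txnrd1 and Txndc2 are intronic, since transcripts of both genes also start further upstream. A match to these letters is a description of the sequence and does not show binding. The core stands in promoters whose genes rose 4.33-fold (Prdx1) and 4.21-fold (Gsta3) in heated wild type and in that of Txndc2, whose mean fell 1.97-fold there.

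Several members sit side by side in the genome, and neighbours did not always move together. By GENCODE M21 on mm10, which placed 68 of the 70 members, 20 members fall into 6 clusters with gaps of at most 200 kb. On chromosome 3, from 107895821 to 108044894, the 7 genes Gstm5, Gstm7, Gstm6, Gstm3, Gstm2, Gstm1 and Gstm4 span 149.1 kb, and in wild type all but Gstm5 rose, by 0.82 (Gstm4) to 3.56 (Gstm7). Gstt3, Gstt1, Gstt4 and Gstt2 span 63.3 kb of chromosome 10 (75774115 to 75837424), where Gstt1 rose and the other 3 fell. Gsto1 and Gsto2 share 31.4 kb of chromosome 19 (47854970 to 47886324), and Txn1 and Txndc8 share 65.8 kb of chromosome 4 (57943373 to 58009124). In each of those pairs the first gene rose and the second fell in wild type. Exons of 12 members overlap exons of a gene on the other strand, Gstm5, Gclm and Txndc5 among them. The library kit keeps strand, and whether the counting used it is not stated in the labels.

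Without heat, the called members differed between the genotypes by small folds. Of 69 members, 10 (14.5%) were called higher in the knockout and 0 lower in limma. Of all genes, 1.25% were higher, 0.0843% lower and 1.33% either. At an unadjusted p under 0.05, 32 members were higher and 1 lower, where 14.3% and 1.69% of all genes were. The called genes were Gsta2, Gsta3, Gsta4, Gstm1, Gstm2, Prdx3, Txn1, Txndc5, Cat and Nfe2l2, and their folds ran from 1.24 (Txndc5) to 1.37 (Gsta2). The groups did not overlap for 15 members on the higher and 1 on the lower side, where 4.33% and 0.643% of all genes did not.

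Gsta2 lay at 23.2, 25.5 and 30.5 TPM in wild type and 33.9, 35.7 and 39.1 TPM in the knockout, without overlap (0.44 ± 0.09, adjusted p = 0.0219), and this call was lost without 3 of the 21 libraries in turn. Gstm2, which had the smallest p, lay at 345, 391 and 419 and 473, 506 and 565 TPM (0.42 ± 0.07, adjusted p = 0.00969), and was the 1 member whose call held without each of the 21 libraries in turn. Nfe2l2 stood at 13.1 and 16.4 TPM on average, also without overlap, but its difference of 0.30 ± 0.07 passed only just (adjusted p = 0.0488) and was lost without 13 of the 21 libraries in turn. Txn1 stood at 15.4, 17.1 and 18.8 TPM in wild type and 20.4, 22.6 and 27.1 TPM in the knockout (0.39 ± 0.09, adjusted p = 0.0388), a call lost without 11 of them. Among the germ-cell genes, Gpx4 (-0.06 ± 0.05), Prdx6b (-0.06 ± 0.22), Txndc2 (-0.04 ± 0.08) and Txnrd3 (-0.01 ± 0.08) did not pass. Prdx6b was nevertheless the 1 member without overlap on the lower side, at 235 to 245 TPM in the knockout and 249 to 253 TPM in wild type. Its SE comes from a spread shared by all groups, heated wild type at 3.57 to 17.2 TPM included.

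The count of 10 depended on single libraries. It was 1 without unheated wild-type library 3, unheated wild-type library 5 or unheated knockout library 6, 3 without wild-type library 2, and 4 to 6 without wild-type libraries 1 and 4 or knockout libraries 2 to 5 in turn, and no omission gave more than 14. It fell to 5 under median-of-ratios scaling and 3 under quantile normalization, and was 21 when only the groups compared entered the fit. Of 20 Sertoli markers, 5 were called higher in the unheated knockout with all libraries. Their sums of 2800 to 3705 TPM lay above the 2230 to 2542 TPM of wild type, with the 3705 TPM in knockout library 6. In the same comparison 2 of 12 Leydig and 1 of 11 macrophage markers were higher. Their part in these differences was not tested.

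**Figure D4:**
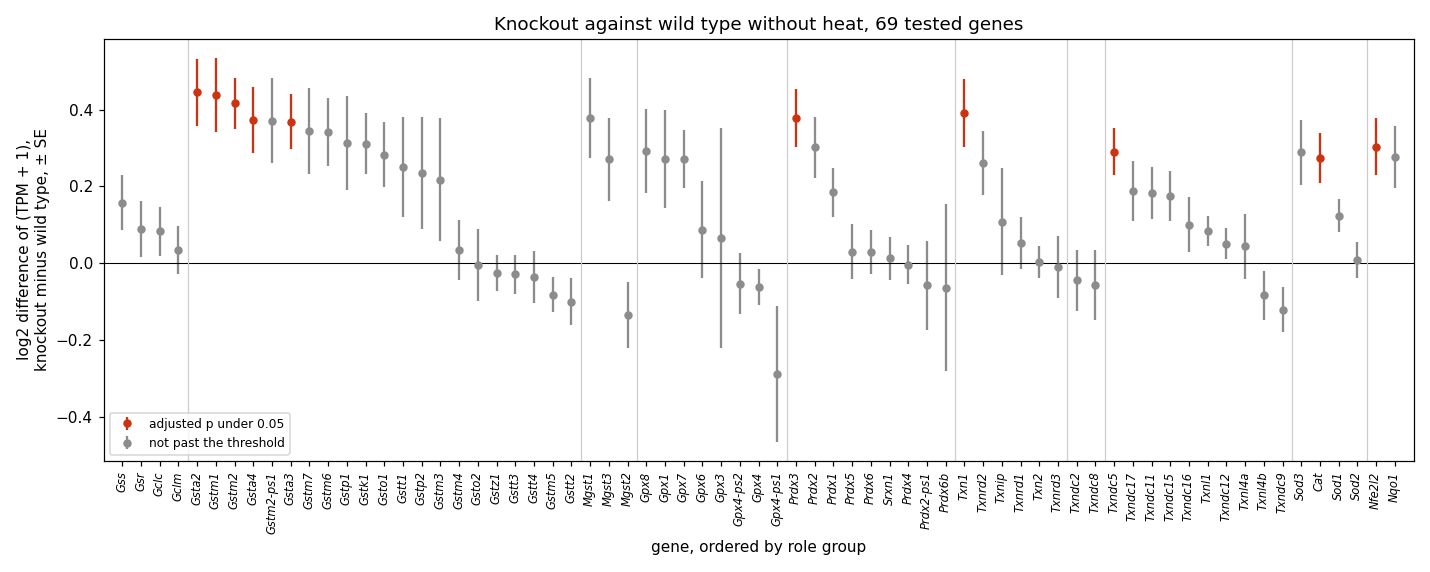
Points are log2 differences of (TPM + 1), knockout minus wild type without heat, for the 69 tested members in order of role, with bars of 1 SE and the 10 called members in red. The called values lie between 0.27 and 0.44, and most transferases, Prdx3, Txn1 and Cat stand above 0 while the germ-cell genes stand near it.

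Other genes that make, use or recycle glutathione and thioredoxin were counted from a list of 54 genes with 51 tested entries. In wild type 30 rose and 15 fell with heat, in the knockout 27 rose and 19 fell, and 2 were higher in the unheated knockout (Selenop and Esd). Of all tested genes, 47% rose and 44.6% fell in wild type, and 41.3% rose and 41.5% fell in the knockout. In the unheated knockout 1.25% of all genes were higher. The deepest fall in wild type was in Selenov, a testis selenoprotein, from a mean of 218 to 16.2 TPM. Nxn, nucleoredoxin, fell from 96.3 to 14 TPM. Selenov stood at 119 and Nxn at 31.9 TPM in the heated knockout. Hmox1, haem oxygenase and another Nfe2l2 target, went from 9.61 to 69 TPM with heat in wild type, and the knockout went from 10.5 to 31.6 TPM. G6pdx, a main source of NADPH for these systems, rose in the same way (6.16 to 57.3 TPM, and 7.95 to 27 TPM in the knockout), while its testis retrogene G6pd2 fell (46.6 to 17.6 TPM, and 47 to 34.1 TPM in the knockout). Keap1, which holds Nfe2l2 in check, fell by 0.70 in wild type and 0.51 in the knockout on the log2 scale. These genes were picked from the list after their values were seen.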

How the data were processed

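RNA was extracted from whole testes with Trizol and sequenced on an Illumina HiSeq after TruSeq stranded mRNA preparation, per the labels' protocols, which call the replicates biological. STAR and mm10 are named in the submitters' processing notes. Not given in the sources used here were the version of STAR, the annotation and the quantification tool. The authors deposited TPM. Read depth cannot be recovered from TPM, so it is unknown, no count test was run, and precision was judged from the replicates. P-values measure the spread between these samples.

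Values were transformed to log2(TPM + 1) and the 18977 entries that reached a mean of 1 TPM across the 21 libraries were fitted with limma 3.58.1 in R 4.3.3, with 4 group means and a mean-variance trend. Within each of 5 comparisons, Benjamini-Hochberg adjustment covered all entries, and adjusted p-values under 0.05 were called. The fit was run on simulated data with known changes in a small share of the genes and a single spread per gene. Most genes changed with heat in the real data, so that run checked the code and not the calls. Errors of TPM are SD and folds are ratios of group means. The members, the marker lists, the list of other pathway genes and the rule for named genes were chosen with earlier results of these data known. Named genes were the most abundant member of each role group, those with the largest called heat effects per group, all members called between unheated genotypes, the largest genotype differences after heat, the known germ-cell or epididymal genes, and the members nearest the 0.5 TPM limit. Further genes named beside a family count were chosen after their values were seen. Alternatives were another pseudocount, other filters, median-of-ratios scaling, quantile normalization, a replicate block, fits of the compared groups alone and omission of each library. Rescaling without mitochondrial transcripts and omission of pseudogenes were added after seeing the data. Transcript identity came from blastn alignments of GENCODE M21 transcripts.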

Additional observations from a re-analysis of the deposited data

Results flagged for a closer look

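Of 212 gene and group values checked, 16 had 1 library far from the rest of its group, where chance gives about 1 in 20. In the unheated knockout, 8 of the 16 were in library 6. Gpx3 16.95, Gss 6.55, Gstk1 14.16, Gstm6 92.03, Gstm7 88.09, Prdx3 34.25 and Txndc5 32.82 TPM were high, and Gstt4 at 471.22 TPM was low. That library had the highest Sertoli (3705 TPM), Leydig (2243 TPM), peritubular myoid, spermatogonial and spermatocyte marker sums of its group. Its macrophage and endothelial sums were not the highest. In heated wild type, 4 were in library 2: Gsta4 627.99, Gstm2 2554.5, Gsto1 42.74 and Mgst1 646.72 TPM. That library had the highest Sertoli (24800 TPM), macrophage (816 TPM), endothelial, peritubular myoid, spermatogonial and red blood cell sums of its group, but not the highest Leydig sum. The part of these marker sums in the values was not tested.

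Gpx3 at 483.66 TPM in heated wild-type library 3 stood above 79.18 to 141.02 TPM in the other 3, and that library alone had Crisp1 at 2126 TPM. Gpx5 at 0.02 TPM in heated wild-type library 1, against 0 in the others, is too low to read. Gstz1 was low at 44.02 TPM in heated knockout library 1, and Txndc5 was high at 23.25 TPM in unheated wild-type library 6.

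The heat effect differed between the genotypes for 66 members by the limma test of the difference. Values of knockout minus wild type on the log2 scale were 3.48 for Prdx6b, 2.22 for Gpx6, 2.09 for Gsto2, 1.87 for Txndc8, 1.5 for Txndc2, 1.2 for Txnrd3, 0.85 for Gpx4, 0.70 for Prdx4, 0.17 for Gstm5 and -1.67 for Gstm7. With 80.7% of all tested genes called in this comparison, such a call is the rule in these data. The call for Gstm5 was lost in 4 of the omissions of single libraries, with a value of 0.10 without heated wild-type library 2.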

How the results depend on the processing

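Counts of members kept within 1.5 times of their values under every alternative run, except those higher in the unheated knockout. That count of 10 became 4 with no filter, 5 under median-of-ratios scaling, 3 under quantile normalization and 21 with only the groups compared in the fit, and ran from 1 to 14 when single libraries were left out. The same omissions gave 47 to 48 higher and 18 to 19 lower for heat in wild type, 48 to 51 and 10 to 13 for heat in the knockout, 15 and 48 to 50 for the genotypes after heat, and 15 to 16 and 49 to 50 for the difference of the heat effects. Single genes were checked only for the 50 tested genes named by the rule above, and sign changes were listed where either setting gave a call. For heat in the knockout, quantile normalization turned Gclm to 0.084 and Gstm5 to -0.31. For heat in wild type, Gstm5 turned to -0.17 under median-of-ratios scaling and -0.70 under quantile normalization. Prdx4 turned to 0.24 for heat in wild type under quantile normalization. The cause was not tested. Median-of-ratios scaling moved the median of all genes by -0.20 for heat in wild type, 0.11 for the genotypes after heat and 0.13 for the difference. Calls lost under it included Gstm1 (-0.21) and Sod1 (-0.12) for the genotypes after heat and Gstt3 (-0.15) for the difference of the heat effects.

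Replicate numbers gave no sign of pairing. Over 28 same-number pairs the correlation of deviations had a median of -0.00032, and 4 exceeded 0.1. Over 136 different-number pairs the median was -0.013, and 24 exceeded 0.1. Such correlations cannot show that the samples were unpaired. With the replicate block the counts were 47 higher and 19 lower for heat in wild type, 50 and 10 for heat in the knockout, 9 and 0 for the unheated genotypes, 15 and 49 after heat, and 15 and 49 for the difference. Depth is unknown, so differences of genes near 1 TPM have no counting error attached.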
